A study of Mus musculus with 10 samples.

Results

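A set of 7 genes of inhibitory signalling, of 22255 genes in the deposited gene table, was examined in RNA of hippocampal synaptoneurosomes, a preparation enriched in pinched-off and resealed synaptic compartments. They are given by symbol, and the rule uses no measured value, but they were chosen with earlier results of these data known. They encode both subunits of the GABA-B receptor (Gabbr1 and Gabbr2), 3 auxiliary subunits of that receptor (Kctd8, Kctd12 and Kctd16) and 2 proteins of the inhibitory postsynapse (Gphn, which encodes gephyrin, and Nlgn2, which encodes neuroligin 2). The transcript table listed 36 transcripts of these genes among 102392. All mice were C57Bl/6J and wild type by their titles. One group had received vehicle and the other AM6545, a CB1 cannabinoid receptor antagonist with little access to the brain, sub-chronically, and each group had 5 libraries. The comparison asks whether RNA levels of this synaptic fraction differ after repeated AM6545. The labels give no age, sex, dose or date, and do not say whether a library was made from 1 animal or a pool, so the tests measure the spread between libraries.

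GABA-B receptors are receptors for GABA, the main inhibitory transmitter of the brain, that signal through G proteins of the Gi/o family. Gabbr1 protein binds GABA, Gabbr2 protein carries the receptor to the cell surface and couples it to the G protein, and the receptor works only as a pair of both. At hippocampal synapses it lowers transmitter release from axon terminals by inhibiting calcium channels, and it opens potassium channels of the Kir3 family in dendrites. KCTD proteins bind the tail of Gabbr2 and the G protein, and set how fast the response rises and fades. Gephyrin forms the scaffold that holds GABA-A and glycine receptors opposite inhibitory terminals, and neuroligin 2 is an adhesion protein that binds neurexins and recruits gephyrin there.

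Gabbr1 has alternative promoters that give receptor subunits of different N-termini. The 1a subunit starts with a pair of sushi domains and is known to go to axon terminals, and the 1b subunit has a short stretch of its own in their place. In GENCODE M21 (GRCm38), Gabbr1 lies on chromosome 17 from 37045966 to 37075067 on the plus strand. Its full 1a transcript, Gabbr1-201, has 22 coding exons and 960 codons, and its full 1b transcript, Gabbr1-203, has 18 coding exons and 844 codons. These share 17 coding exons whole, 493 coding bases are found only in 1a and 145 only in 1b, and the start codons are 4159 bases apart. A short transcript, Gabbr1-209 (1595 bases), uses the 1a start codon and the first 3 coding exons, then reads on into the following intron to a stop after 229 codons, so it ends before the exons shared with 1b, which encode the GABA-binding and transmembrane parts. Some coding sequences that set the 3 transcripts apart are shown 5′ to 3′ on the plus strand, with the start or stop codon in capitals. The first is the first coding exon of 1a, at chr17:37046695-37046776. The second is the coding stretch found only in 1b, at chr17:37050854-37050998. The third is the read-through of Gabbr1-209 from the end of its last shared exon to its stop codon, at chr17:37048607-37048824.
Gabbr1 1a: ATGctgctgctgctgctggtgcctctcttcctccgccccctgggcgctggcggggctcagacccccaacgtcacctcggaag
Gabbr1 1b: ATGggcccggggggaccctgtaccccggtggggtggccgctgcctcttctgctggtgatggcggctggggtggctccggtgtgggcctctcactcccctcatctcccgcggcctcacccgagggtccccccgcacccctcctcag
Gabbr1-209: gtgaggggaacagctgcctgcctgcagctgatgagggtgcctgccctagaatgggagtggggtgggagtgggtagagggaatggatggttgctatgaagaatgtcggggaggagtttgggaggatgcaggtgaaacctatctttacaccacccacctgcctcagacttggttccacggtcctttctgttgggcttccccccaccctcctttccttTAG

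**Figure D1:**
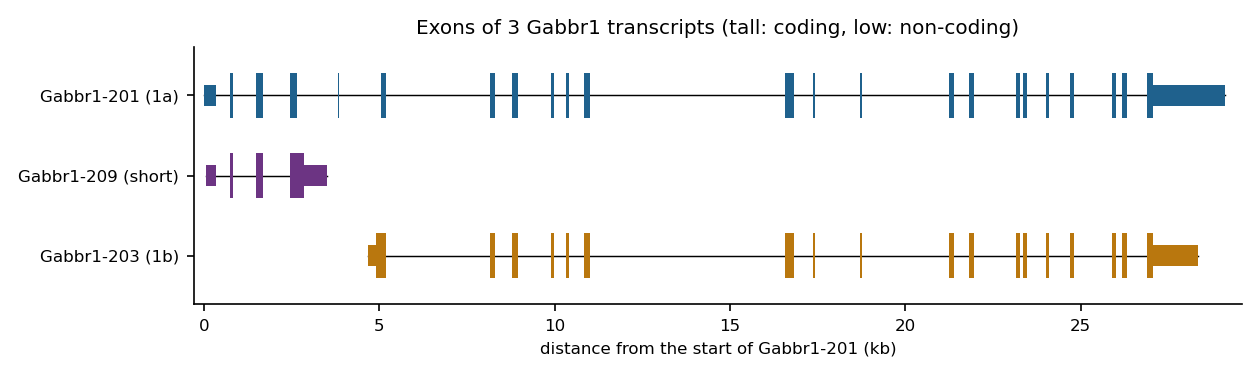
Exon map of 3 Gabbr1 transcripts of GENCODE M21, drawn to scale by distance from the start of Gabbr1-201 in kilobases. Tall boxes are coding and low boxes are non-coding parts of exons, and lines are introns. Gabbr1-201 (1a) and Gabbr1-203 (1b) share 17 coding exons and differ at their 5′ ends. The non-coding part of the last exon is longer in Gabbr1-201 than in Gabbr1-203. Gabbr1-209 ends within an intron of Gabbr1-201.

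Library totals ranged from 18106112 to 25899794 estimated counts. Every one of the 7 genes passed the filter on low counts, with at least 178 counts in every library. The 12 excitatory neuron markers had summed levels of 4889 to 5552 CPM (counts scaled to the library total and its TMM factor) in vehicle and 4827 to 5149 in AM6545 libraries, and the 14 interneuron markers had 677 to 1159 and 764 to 903. Markers of other cells were also measured. The 10 oligodendrocyte markers summed to 12572 to 28773 CPM over both groups, the 10 astrocyte markers to 4242 to 4765 in vehicle and 3709.6 to 5244 in AM6545 libraries, and the 10 choroid plexus markers to 87.3 to 5152. Of the 10 astrocyte markers 1 had an unadjusted edgeR p under 0.05, against 1.88% of all genes tested. It was Aldh1l1, at 67.3 ± 6.26 CPM with vehicle and 81.2 ± 8.52 with AM6545 (SD, n = 5 each). Its log2 difference was 0.27 (edgeR unadjusted p = 0.0147, adjusted p = 0.9998), with 4 of 5 AM6545 libraries above all vehicle libraries. All 10 choroid plexus markers had a log2 difference below 0 (AM6545 minus vehicle, median -0.441), against 7452 of 14358 genes tested. None was under an unadjusted p of 0.05, and their sum ran from 87.3 to 5152 CPM within the vehicle group alone. The part of these other cells in the results on the 7 genes was not tested. In principal components of all tested genes, vehicle replicate 1 (39.3 on the second component) and vehicle replicate 4 (39.4 on the first) stood at the ends. In a bulk fraction such as this, fewer compartments of a type and less RNA in each cannot be told apart.

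None of the 7 genes differed between the groups past the threshold of an adjusted p of 0.05 in edgeR's quasi-likelihood test with Benjamini-Hochberg adjustment over 14358 genes (adjusted p = 0.9998 for each). None had an unadjusted p under 0.05 either. Among all genes tested the first threshold was passed by 0% and the second by 1.88% (270 genes). No gene of the 7 had all 5 AM6545 libraries above or all below the vehicle libraries, which was so for 0.293% of all genes tested. The log2 differences (AM6545 minus vehicle) ran from -0.17 for Kctd16 to 0.19 for Gabbr1, with a median of 0.023, and the middle 90% of all genes ran from -0.26 to 0.24 around a median of -0.0058. The 95% intervals still allow differences of moderate size: the widest in fold terms was that of Nlgn2, from 0.775 to 1.19. The lowest bound of all was 0.749, for Kctd16, and the highest 1.32, for Gphn. DESeq2 and limma-voom with quality weights also called 0 genes.

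**Figure D2:**
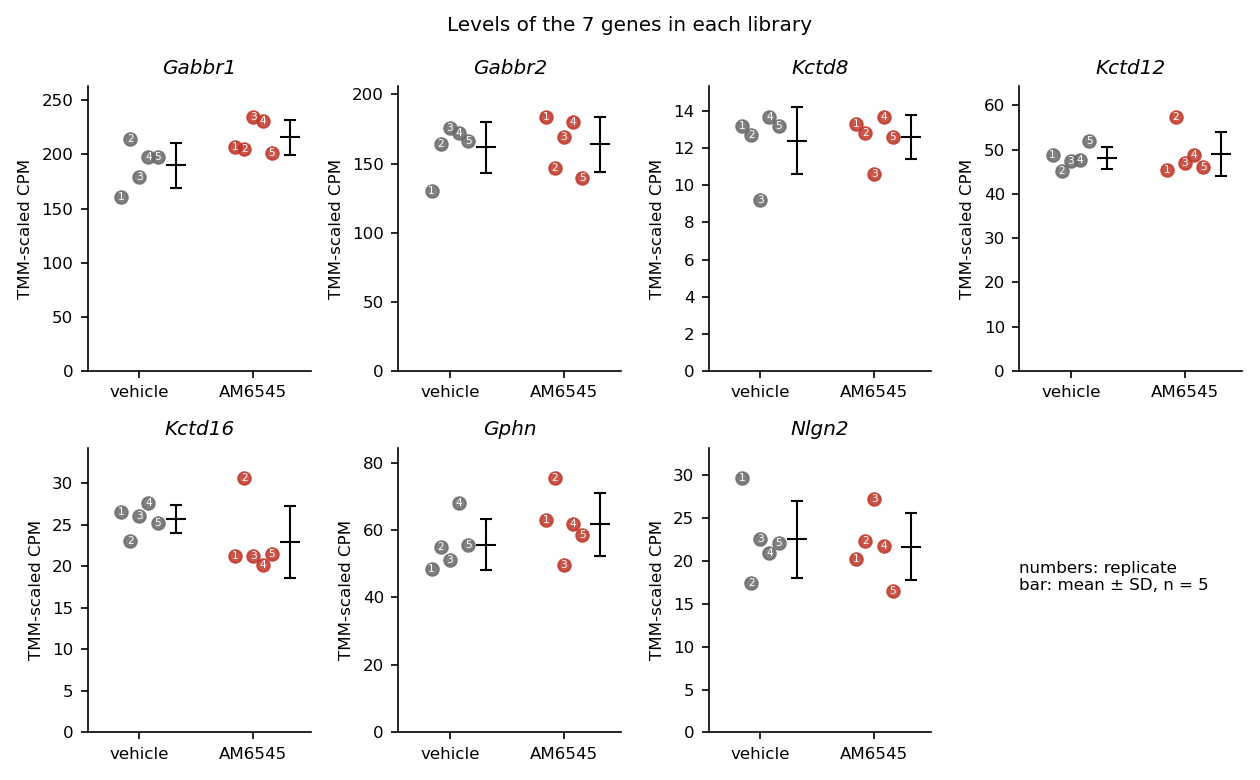
TMM-scaled CPM of each of the 7 genes (y axis, from 0, own scale per gene) in the 5 vehicle libraries (grey) and the 5 AM6545 libraries (red). Points carry the replicate number and bars are mean ± SD. The groups overlap for every gene, and AM6545 replicate 2 stands above the other libraries for Kctd12, Kctd16 and Gphn.

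Gabbr1, the GABA-binding subunit, was measured at 160.2, 214, 179, 198 and 198 CPM in vehicle replicates 1 to 5 and at 207, 205, 235, 231 and 201 CPM in AM6545 replicates 1 to 5. AM6545 replicates 3 and 4 were above every vehicle library, and the other 3 lay below vehicle replicate 2. The means were 189.6 ± 20.5 and 216 ± 15.7 CPM (SD, n = 5 each). The log2 difference of 0.19 (SE 0.0986, 95% interval -0.02 to 0.39) had an unadjusted p = 0.077 in edgeR, the smallest of the 7, and adjusted p = 0.9998. It stayed between 0.13, without vehicle replicate 1, and 0.23, without vehicle replicate 2.

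Gabbr2, the partner that couples to the G protein (chromosome 4, 46662305 to 46991873, minus strand), was measured at 130.1, 164, 176, 172 and 166 CPM with vehicle and 184, 147, 169, 180.2 and 139.6 CPM with AM6545. Vehicle replicate 1 was the lowest of all 10, and the AM6545 libraries spread over both sides of the other 4 vehicle libraries. The log2 difference was 0.02 (SE 0.11, 95% interval -0.21 to 0.25, edgeR unadjusted p = 0.845). Its sign turned without vehicle replicate 1, to -0.047.

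The ratio of Gabbr1 to Gabbr2 was compared per length, as TPM (length-scaled shares of all transcript counts, computed from the transcript counts and annotated lengths). The log2 ratio was 1.20, 1.38, 0.969, 1.14 and 1.15 in vehicle and 1.10, 1.43, 1.43, 1.29 and 1.54 in AM6545 libraries. Gabbr1 was thus above Gabbr2 in every library, by 1.96 to 2.90 fold in TPM. The group means of the log2 ratio were 1.17 ± 0.148 and 1.36 ± 0.169 (SD, n = 5 each), a difference of 0.191 that did not pass an exact two-sided permutation test over 252 arrangements (p = 0.103, adjusted p = 0.31 over 3 comparisons; smallest possible p 0.00794). With each library left out in turn, it ran from 0.141 (without vehicle replicate 3, exact permutation p = 0.206) to 0.255 (without AM6545 replicate 1, p = 0.0317). That last p was not adjusted and was the only 1 of these runs under 0.05. Much of the excess of Gabbr1 lay in counts assigned to the short Gabbr1-209. The TPM of Gabbr2 was 0.78 times the sum of the full transcripts Gabbr1-201 and Gabbr1-203 (range 0.696 to 0.949 over 10 libraries).

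Among the transcripts of Gabbr1, 1b was the leading full-length form. Of the estimated counts of the gene, Gabbr1-203 (1b) held 64.1%, Gabbr1-209 (short) 24.4% and Gabbr1-201 (full 1a) 11.2% on average over 10 libraries. The other protein-coding transcripts, Gabbr1-202 (1a) and Gabbr1-208 (1b), had at most 19 and 4 counts in a library. Per length, Gabbr1-203 was measured at 42.7, 71.7, 53.1, 61.0 and 61.7 TPM in vehicle and 69.8, 62.6, 72.9, 71.5 and 60.3 TPM in AM6545 libraries. Gabbr1-201 was at 7.16 to 10.7 TPM over all 10, so that 1b exceeded full-length 1a by 5.84 to 9.74 fold within each library (mean 7.59). Gabbr1-209, whose coding part opens with the 1a exon printed above, was at 37.3 to 78.8 TPM, close to Gabbr1-203, with a ratio of 0.854 to 1.18 to it. The transcripts share exons and their reads were divided by estimation, so these levels carry an error that the spread between libraries does not show in full. Part of Gabbr1-209 is intron of Gabbr1-201. Reads of Gabbr1 RNA with this intron unspliced cannot be told apart from Gabbr1-209 here, and their part in its level was not tested.

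**Figure D3:**
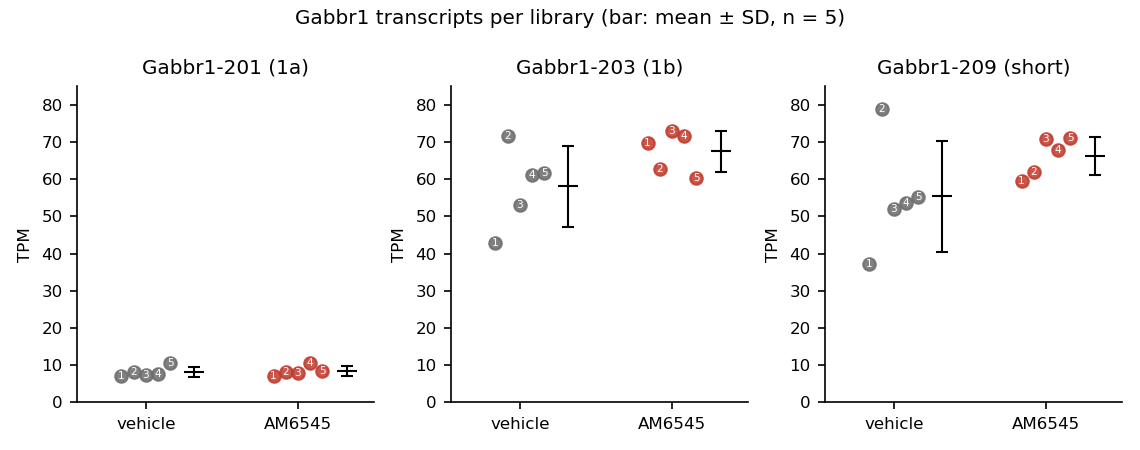
TPM (y axis, 1 scale from 0) of Gabbr1-201, Gabbr1-203 and Gabbr1-209 in 5 vehicle (grey) and 5 AM6545 (red) libraries, numbered by replicate, with mean ± SD. Gabbr1-201 lies between 7.16 and 10.7 TPM in every library, below all values of the other transcripts.

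No transcript of Gabbr1 differed between the groups past the threshold. In the edgeR fit over 31848 transcripts, 0.00314% of transcripts (1, of the splicing factor gene Srrm1) had an adjusted p under 0.05 and 1.97% had an unadjusted p under 0.05, and none of the latter was among the 14 tested transcripts of the 7 genes. The log2 difference (AM6545 minus vehicle) was 0.02 for Gabbr1-201 (95% interval -0.26 to 0.31), 0.19 for Gabbr1-203 (-0.03 to 0.42) and 0.24 for Gabbr1-209 (-0.05 to 0.53), each with an edgeR adjusted p = 0.9999. For Gabbr1-203, 3 of 5 AM6545 libraries lay above every vehicle library, and 0 of 5 did for Gabbr1-209, where vehicle replicate 2 was the highest of all.

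Of the summed TPM of all 1a and 1b transcripts, the share whose coding part starts in the 1a exon, short form included, was 51.7, 54.7, 52.8, 50.4 and 51.8% in vehicle and 48.8, 52.9, 51.9, 52.3 and 57.1% in AM6545 libraries. Means were 52.3 ± 1.62% and 52.6 ± 2.99% (SD, n = 5 each; exact two-sided permutation p = 0.841, adjusted p = 0.841 over 3 comparisons). With Gabbr1-201 and Gabbr1-203 alone, the 1a share was 12.5 ± 1.91% with vehicle and 11.2 ± 1.59% with AM6545 (exact permutation p = 0.278). Which transcripts are counted as 1a thus moved the share far more than the treatment groups differed.

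Kctd12 encodes the auxiliary subunit known for making GABA-B responses fade quickly. It was measured at 48.8, 45.1, 47.5, 47.7 and 51.9 CPM with vehicle and 45.4, 57.5, 47.1, 48.7 and 46.1 CPM with AM6545. Apart from AM6545 replicate 2, all libraries lay within the range of the vehicle group. The log2 difference was 0.02 (SE 0.0929, 95% interval -0.17 to 0.22, edgeR unadjusted p = 0.808), and -0.041 without AM6545 replicate 2. Kctd12-202, its single-exon protein-coding transcript, was at 45.8 ± 1.68 CPM with vehicle and 46.8 ± 4.72 CPM with AM6545 (SD, n = 5 each). The gene lies on chromosome 14 (102976581 to 102982637, minus strand), and its exon overlaps Gm26778 on the other strand and Mir5130 on the same strand. As no source used here says that strand was used in counting, reads of such overlaps cannot be told apart.

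Kctd16 encodes an auxiliary subunit that does not give this fast fading. It was measured at 26.5, 23.0, 26, 27.6 and 25.2 CPM with vehicle and 21.2, 30.6, 21.2, 20.1 and 21.5 CPM with AM6545. Of the AM6545 libraries 4 of 5 lay below every vehicle library, and AM6545 replicate 2 lay above all 10. The means were 25.7 ± 1.72 and 22.9 ± 4.31 CPM (SD, n = 5 each), with a log2 difference of -0.17 (SE 0.119, 95% interval -0.42 to 0.08, edgeR unadjusted p = 0.18, adjusted p = 0.9998). Without AM6545 replicate 2 it was -0.29, and without AM6545 replicate 4 it was -0.12. The edgeR adjusted p was at 0.915 or above in every fit that left out 1 library. Its leading transcripts also had AM6545 replicate 2 above every vehicle library, with 4 of 5 AM6545 libraries below all vehicle libraries for Kctd16-206 and 3 of 5 for Kctd16-202. Kctd16-206, which codes for 427 residues, was at 11.1 ± 1.32 and 9.52 ± 2.79 CPM, and Kctd16-202, a single exon of 723 bases, at 13.3 ± 1.15 and 12.3 ± 2.54 CPM (SD, n = 5 each). The gene lies on chromosome 18 (40256962 to 40531630, plus strand), and an exon of it overlaps AC098707.1 on the other strand.

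Kctd8, like Kctd16 an auxiliary subunit without fast fading, was measured at 13.2, 12.7, 9.23, 13.7 and 13.2 CPM with vehicle and 13.3, 12.8, 10.6, 13.7 and 12.6 CPM with AM6545. Replicate 3 was the lowest in each group, and the other 4 libraries of both groups lay within 12.6 to 13.7 CPM. The log2 difference was 0.02 (SE 0.124, 95% interval -0.24 to 0.29, edgeR unadjusted p = 0.851), and -0.064 without vehicle replicate 3. The gene lies on chromosome 5 (69109285 to 69341679, minus strand), and an exon of it overlaps Gm24368 on the other strand.

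The balance of Kctd12 to Kctd16 depended on how length was taken and on the short transcripts Kctd16-202 and Kctd12-201. With each transcript divided by its own length, the log2 ratio in TPM was -0.937 ± 0.137 with vehicle and -0.812 ± 0.196 with AM6545 (SD, n = 5 each). The difference of 0.125 had an exact two-sided permutation p = 0.286 (adjusted p = 0.429 over 3 comparisons). Kctd16 was then the higher of the pair in every library, but through Kctd16-202 (140 codons), at 28 to 43.8 TPM. Kctd16-206, which codes for 427 residues, was at 5.07 to 9.84 TPM, below Kctd12 at 20.7 to 28.5 TPM. That level of Kctd12 includes Kctd12-201, a non-coding transcript of 539 bases that held 5.12% of the Kctd12 counts on average. Divided by its longest transcript, Kctd12 was at 13.7 to 18.3 TPM. With each gene divided by its longest transcript, a choice made after seeing the data, the log2 ratio was -0.22 ± 0.0976 and -0.0206 ± 0.132. The difference of 0.2 had an exact permutation p = 0.0317, not adjusted for the settings and ratios tried. Plain gene counts gave the same difference and p by construction, since a fixed length per gene moves the log2 ratio of every library equally. Protein-coding transcripts alone, without Kctd12-201, gave log2 ratios of -1.57 ± 0.0831 with vehicle and -1.39 ± 0.167 with AM6545 (SD, n = 5 each). Their difference of 0.183 had an unadjusted p = 0.0714 by the exact permutation test. The levels of both genes over the 10 libraries had a Pearson r of 0.67 (permutation p = 0.0239, adjusted p = 0.0716 over 3 relations) and a Spearman rho of 0.52 (permutation p = 0.135, adjusted p = 0.213). Without the libraries farthest from the median of Kctd12, AM6545 replicate 2 and vehicle replicate 5, r was 0.32. Leaving out the ends of a range can lower r also where a relation holds, so this does not settle what the relation rests on. Within the vehicle group r was 0.39, and within the AM6545 group, replicate 2 included, it was 0.91.

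Gphn, the gephyrin gene (chromosome 12, 78226379 to 78684772, plus strand), was measured at 48.4, 55.0, 51.0, 68.1 and 55.6 CPM with vehicle and 63.0, 75.4, 49.7, 61.7 and 58.5 CPM with AM6545. AM6545 replicate 2 was the highest and vehicle replicate 1 the lowest, and the groups overlapped from 49.7 to 68.1 CPM. The means were 55.6 ± 7.56 and 61.6 ± 9.25 CPM (SD, n = 5 each), with a log2 difference of 0.15 (SE 0.119, 95% interval -0.10 to 0.40, edgeR unadjusted p = 0.23). Without AM6545 replicate 2 it was 0.066. An exon of the gene overlaps Gm48226 on the other strand.

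Gephyrin RNA is known for its alternatively spliced cassette exons. The table held 3 Gphn transcripts, of which Gphn-201 and Gphn-202 are full-length and share 22 coding exons. Their coding parts differ in the exons printed here 5′ to 3′ on the plus strand of GRCm38. Their annotated starts differ too, at 78226379 for Gphn-201 and 78226653 for Gphn-202. The division of reads between them therefore need not rest on these exons alone. Gphn-202 has an exon of its own at chr12:78493950-78494057, and Gphn-201 has exons of its own at chr12:78522898-78522954 and chr12:78532657-78532698.
Gphn-202 exon: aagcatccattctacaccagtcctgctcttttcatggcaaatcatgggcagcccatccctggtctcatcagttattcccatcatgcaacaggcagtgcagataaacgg
Gphn-201 first exon: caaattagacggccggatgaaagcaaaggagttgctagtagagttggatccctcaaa
Gphn-201 second exon: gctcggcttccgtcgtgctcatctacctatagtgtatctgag

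The 2 forms were about equal. Gphn-202 made up 49.9, 47.0, 60.4, 52.6 and 53.3% of their summed TPM in vehicle and 54.6, 43.9, 55.8, 45.8 and 54.1% in AM6545 libraries. The highest share, 60.4%, was in a vehicle and the lowest, 43.9%, in an AM6545 library, and the groups overlapped in between. Gphn-201 differed by a log2 of 0.21 (95% interval -0.19 to 0.61) and Gphn-202 by 0.08 (-0.19 to 0.35), with an edgeR adjusted p = 0.9999 each. The former was 0.071 without AM6545 replicate 2 and the latter 0.019 without vehicle replicate 1. RNA that joins the shared exons directly has no transcript of its own in this annotation, and its reads cannot be told apart from those of both forms.

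Nlgn2, the adhesion protein of inhibitory synapses (chromosome 11, 69823122 to 69837784, minus strand), was measured at 29.7, 17.4, 22.6, 20.9 and 22.1 CPM with vehicle and 20.3, 22.4, 27.3, 21.8 and 16.5 CPM with AM6545. Vehicle replicate 1 was the highest and AM6545 replicate 5 the lowest of all. The log2 difference was -0.06 (SE 0.146, 95% interval -0.37 to 0.25, edgeR unadjusted p = 0.699), and it was 0.061 without vehicle replicate 1. Nlgn2-201 and Nlgn2-202 have the same coding exons and start 2935 bases apart. Nlgn2-202 was estimated at 0 to 43.3% of their summed TPM, and at 0 in vehicle replicate 1 and AM6545 replicate 2, so the division between these forms was not stable from library to library.

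Vehicle replicate 1 was at the edge for several of the 7 genes at once: it was the lowest of 10 for Gabbr1, Gabbr2 and Gphn and the highest for Nlgn2. AM6545 replicate 2 was the highest for Kctd12, Kctd16 and Gphn. Over the 10 libraries, Gabbr1 and Gabbr2 had a Pearson r of 0.54 (permutation p = 0.106, adjusted p = 0.159 over 3 relations) and a Spearman rho of 0.35 (permutation p = 0.331, adjusted p = 0.331). Without the libraries farthest from the median of Gabbr1, vehicle replicate 1 and AM6545 replicate 3, r was 0.09. Gphn and Nlgn2 had an r of -0.40 (permutation p = 0.253, adjusted p = 0.253) and a rho of -0.50 (permutation p = 0.142, adjusted p = 0.213), and an r of -0.67 (permutation p = 0.0718) without AM6545 replicate 2 and vehicle replicate 4. Of 14357 other genes, Kcnf1 (r 0.979), Slc35f1 (0.946) and Fam171a2 (0.945) followed Gabbr1 most closely in log2 CPM over the 10 libraries, given as a description, since the libraries share their depth and composition between genes. Gabbr2 stood at rank 2089 in this order and Kctd16 at 12613.

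Per length, Gabbr1 was the highest of the 7 genes and Kctd8 and Nlgn2 were the lowest. With transcripts divided by their own lengths, the mean over 10 libraries was 133 TPM for Gabbr1 (range 88.5 to 159), 55.2 for Gabbr2 (38.5 to 64.3), 43.5 for Kctd16 (36.2 to 53.7), 33.4 for Gphn (24.0 to 42.1), 23.7 for Kctd12 (20.7 to 28.5), 8.52 for Kctd8 (6.06 to 9.53) and 8.36 for Nlgn2 (6.28 to 10.2). Gabbr1 was above Gabbr2, and Kctd12 above Kctd8, with no overlap of ranges. Gabbr2 exceeded Kctd16 in 8 of 10 libraries and Kctd8 exceeded Nlgn2 in 6 of 10, with overlapping ranges in both pairs. Kctd16 exceeded Gphn and Gphn exceeded Kctd12 in 10 of 10 libraries, though the ranges overlapped. With genes divided by their longest transcript, Gabbr1 was at 75.3 TPM and Kctd16 at 17.0, below Gphn at 32 in every library, while Gabbr2 (55.1), Kctd8 (8.50) and Nlgn2 (7.64) were nearly the same. On this scale Gabbr1 was above Gabbr2 in 10 of 10 libraries with overlapping ranges, and Kctd16 was above Kctd12, at 15.6 TPM, in 8 of 10. The place of Kctd16 above or below Gphn therefore rested on the short Kctd16-202, whose counts also enter the longest-transcript scale. By the longest lengths, the 3 KCTD genes together came to 0.759 times Gabbr2 (0.617 to 0.983), and Nlgn2 to 0.249 times Gphn (0.18 to 0.393).

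**Figure D4:**
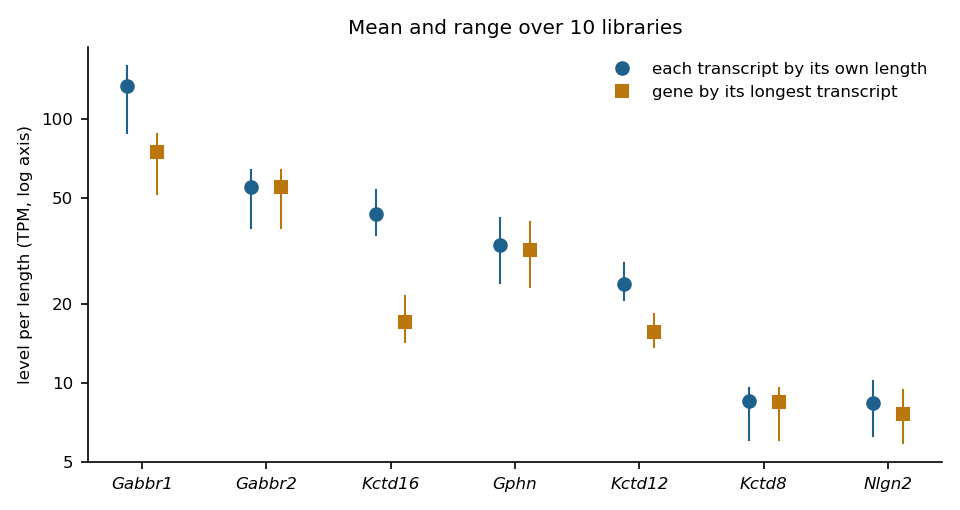
Mean level per length of the 7 genes in TPM (log axis), with lines for the range over 10 libraries, by each transcript's own length (circles) and by the longest transcript of the gene (squares). Gabbr1 is highest on both scales, at 133 and 75.3 TPM, and Kctd16 moves most, from 43.5 to 17.0 TPM.

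Among 26 listed GABA-B signalling partners, 25 were tested, 0 passed the adjusted threshold and 1 had an unadjusted edgeR p under 0.05, against 1.88% of all genes. The median log2 difference was 0.020, against -0.0058 over all genes, and Kcnj5 did not pass the filter. The 1 gene was Gnb4, a G protein beta subunit, at 19.8, 20.1, 20.3, 19.4 and 20.6 CPM with vehicle and 21, 21.8, 24.6, 25.3 and 25.8 CPM with AM6545. Each of the 5 AM6545 values exceeded every vehicle value, with a log2 difference of 0.24 (SE 0.0951, 95% interval 0.04 to 0.44, edgeR unadjusted p = 0.0203, adjusted p = 0.9998). The Kir3 channel subunits through which the receptor acts in dendrites were near 0 difference: Kcnj3 at -0.07 (95% interval -0.27 to 0.13), Kcnj6 at -0.06 (-0.38 to 0.25) and Kcnj9 at 0.04 (-0.18 to 0.26). So were the G protein alpha subunits Gnao1 at 0.06 (-0.14 to 0.26) and Gnai1 at 0.09 (-0.12 to 0.31), and Rgs7, which speeds the end of the G protein signal, at -0.01 (-0.21 to 0.19).

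Of 33 listed partners of the gephyrin synapse, 30 were tested (Nlgn4l, Insyn2a and Insyn2b were not among the genes matched). Of these 0 had an edgeR p under 0.05, adjusted or not, against 0% and 1.88% of all genes. The median log2 difference was -0.004. Nlgn3, another neuroligin, was at 121 ± 15.8 CPM with vehicle and 119 ± 13.9 with AM6545 (SD, n = 5 each), and Slitrk3, an adhesion protein of inhibitory synapses, at 101 ± 15.6 and 96.9 ± 13 CPM. Lhfpl4, which links GABA-A receptors to neuroligin 2, was at 67.7 ± 4.93 and 66.5 ± 5.72 CPM, and Glrb, the glycine receptor subunit that binds gephyrin, at 354 ± 56.2 and 354 ± 20.9 CPM. The largest log2 difference of the list was that of Insyn1, a gephyrin-associated protein at 4.01 ± 1.40 and 5.40 ± 0.974 CPM (SD, n = 5 each), at 0.43 (95% interval -0.04 to 0.90, edgeR unadjusted p = 0.0707), with 1 of 5 AM6545 libraries above all vehicle libraries. Without vehicle replicate 1 it was 0.26.

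The listed GABA-A receptor subunits, which were not limited to those that gephyrin holds, showed no gene past a threshold either. Of 12 tested, 0 had an edgeR p under 0.05, adjusted or not, against 0% and 1.88% of all genes. The median log2 difference was -0.060. Gabra2, an alpha subunit, was at -0.09 (95% interval -0.33 to 0.15), and at -0.014 without vehicle replicate 4.

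Of 10 genes of GABA synthesis, packaging and uptake, 0 had an edgeR p under 0.05, adjusted or not, against 0% and 1.88% of all genes. Of the 10, 7 had a log2 difference above 0, against 48.1% of all genes, and the median was 0.155 against -0.0058. The other 3 were below 0, and the differences ran from -0.28 to 0.30. Gad1, the main enzyme of GABA synthesis, was measured at 287, 321, 286, 373 and 331 CPM with vehicle and 407, 431, 276, 371 and 384 CPM with AM6545. Of the latter 3 of 5 were above all vehicle libraries and AM6545 replicate 3 was below them all, with a log2 difference of 0.23 (95% interval -0.03 to 0.48, edgeR unadjusted p = 0.0786). Gad2 was at 0.16 (-0.10 to 0.41) and the vesicular transporter Slc32a1 at 0.15 (-0.24 to 0.55). The level of Slc32a1 was low, with means of 2.11 CPM with vehicle and 2.35 CPM with AM6545. Among the 14 interneuron markers 7 were above and 7 below 0. Pvalb was at -0.30 (-0.65 to 0.05; -0.11 without vehicle replicate 1) and Sst at -0.09 (-0.48 to 0.30), and Calb2, at 0.50 (edgeR unadjusted p = 0.00297, adjusted p = 0.9998), was the 1 marker of the 14 under an unadjusted p of 0.05, against 1.88% of all genes. The part of interneuron content in these values was not tested.

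**Figure D5:**
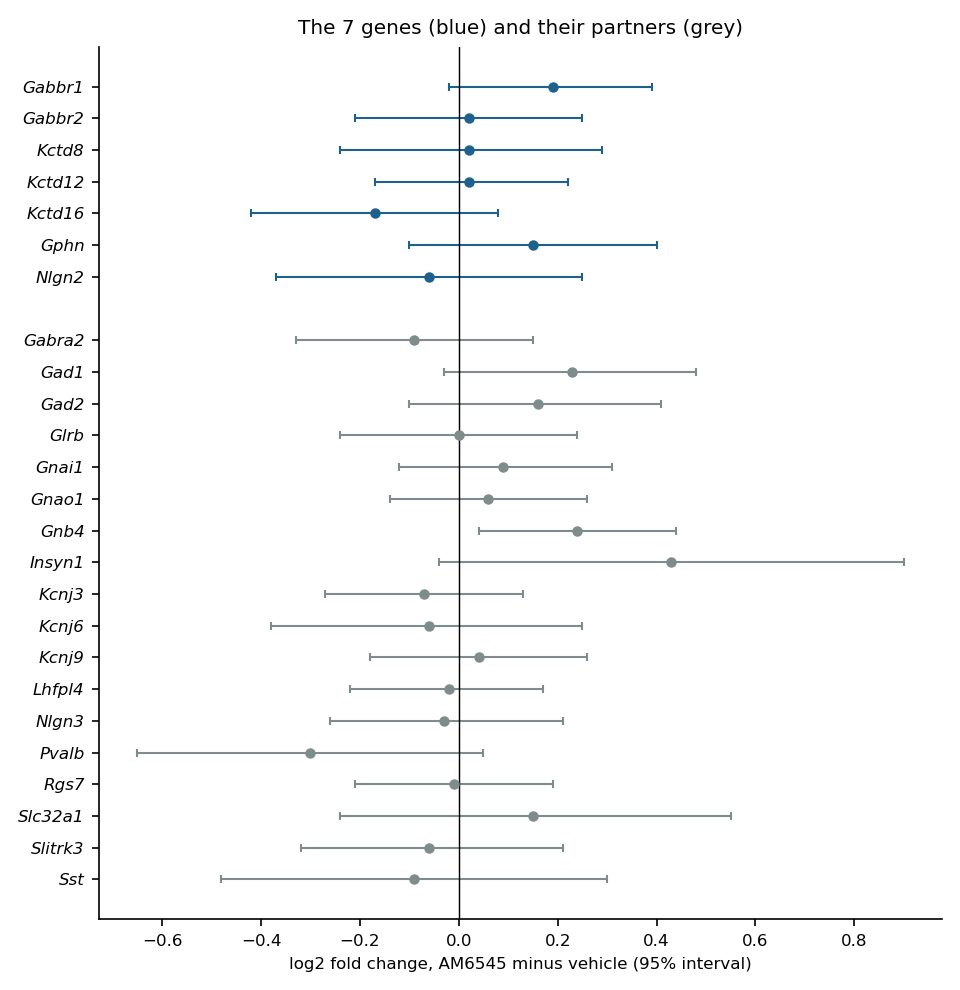
Log2 difference between AM6545 and vehicle libraries (x axis, AM6545 minus vehicle) with 95% intervals from edgeR, for the 7 genes (blue) and 18 listed partners and markers (grey). The intervals of the 7 genes all include 0, and that of Gnb4, at 0.24, is the 1 interval among those drawn that does not. Gnb4 was drawn because its unadjusted p was under 0.05. Calb2 (0.20 to 0.81) and Aldh1l1 (0.06 to 0.48), chosen in the same way, are not drawn.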

How the data were processed

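Total RNA of hippocampal synaptoneurosomes was extracted and made into libraries with a kit for ultra-low input, per the labels' protocols. The authors deposited estimated counts per gene and per transcript; Salmon 1.5.2 and the genome build mm10 are named in the submitters' processing notes. The annotation release, the use of strand and the gene-level summary are not given in the sources used here. The gene counts of the 7 genes equalled the sums of their transcripts. Symbols were matched by gene identifier for 22155 of 22255 genes. Coordinates, transcript names and lengths come from GENCODE M21 (GRCm38), matched by identifier without version, since 0 of 7 versions matched, so exon bounds may differ from those used in counting.

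Estimated counts were rounded and tested with edgeR 4.0.16 in R 4.3.3 (TMM, filterByExpr with minimum count 10 and minimum total 15, robust quasi-likelihood, group only, all 10 libraries; Benjamini-Hochberg adjusted p under 0.05). CPM values are TMM-scaled. TPM values divide transcript counts by annotated length. Of the transcript counts, at least 99.17% in each library had a length. Shares and ratios were compared by exact two-sided permutation tests, and correlations on log2 CPM (prior count 2) by permutation with 100000 resamples, in Python 3.11.15 with scipy 1.17.1. The scripts were tested on simulated counts. A count of 3, the lowest level read as more than 0, corresponds to at most 0.166 CPM in any library; the labels name no molecular identifiers for these amplified libraries, so this covers counting error only.

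The members and gene lists were chosen with earlier results of these data known. Named genes were the 7 genes, the main protein-coding transcripts, partners and markers set by name (some are not reported here), list genes with an unadjusted p under 0.05 and the 3 genes most like Gabbr1. Alternatives were DESeq2 1.42.0 size factors or Wald test, total count scaling, limma-voom 3.58.1 with quality weights, other count filters, other lengths and transcripts, the replicate number as a block and each library left out in turn.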

Additional observations from a re-analysis of the deposited data

Results flagged for a closer look

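In groups of 5 libraries, 8 of 44 groups tested for genes and transcripts had 1 library far from the other 4, where chance gives about 2.2; several rest on the same gene measured as gene and as transcript. Gabbr2 in vehicle replicate 1 was at 130.1 CPM against 164 to 176 in the others, and Gabbr2-201 at 129.8 against 165 to 177. Kctd8 in vehicle replicate 3 was at 9.23 CPM against 12.7 to 13.7, and Kctd8-201 at 9.27 against 12.9 to 13.5. In AM6545 replicate 2, Kctd12 was at 57.5 CPM against 45.4 to 48.7 and Kctd16 at 30.6 against 20.1 to 21.5. Gabbr1-201 in vehicle replicate 5 was at 27.6 CPM against 20.6 to 22.0 in the others. Nlgn2-201 in AM6545 replicate 5 was at 8.89 CPM against 19.5 to 22.5.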

How the results depend on the processing

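The 7 genes kept an adjusted p above 0.05 in every alternative run, and Gabbr1, Kctd16 and Gphn kept their sign in all of them. With limma-voom quality weights the log2 difference changed sign for Kctd12 (-0.020), Gabbr2-201 (-0.003), Rgs7 (0.013) and Sst (0.062), and that of Glrb was 0.001 with total count scaling. The Gabbr1 1a share differed by -0.428 percentage points from counts without length and by -1.32 from full-length transcripts. The difference in the Kctd12 to Kctd16 log2 ratio was 0.2 (unadjusted exact permutation p = 0.0317) from gene counts or the longest length, the latter added after seeing the data. Those settings differ only by a constant in the log2 ratio, so they are the same result. Transcripts called were 11 with the DESeq2 Wald test, 2 with no filter and 0 with limma-voom or at least 10 counts in every library; genes called were 0 in each of these. The causes were not tested.

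The labels do not say whether equal replicate numbers pair libraries, and no clear sign of pairing was seen. Deviations of same-numbered libraries correlated over 0.1 in 2 of 5 pairs (-0.19 to 0.39), and 3 of 10 libraries were closest to their own number. So few pairs cannot exclude pairing. With the replicate block 0 genes and 0 transcripts were called, and Glrb was at 0.013. Over the 5 same-numbered pairs an exact sign-flip permutation test, which cannot go below p = 0.0625, gave p = 0.188 for the Gabbr1 to Gabbr2 ratio (0.191 by construction), p = 0.5 for Kctd12 to Kctd16 and p = 0.875 for the 1a share.

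Leaving out each library in turn gave these ranges of the log2 difference: Gabbr2 -0.047 to 0.075, Kctd8 -0.064 to 0.078, Kctd12 -0.041 to 0.051, Nlgn2 -0.15 to 0.061, Gabbr1-201 -0.075 to 0.11, Gabbr2-201 -0.048 to 0.072, Kctd8-201 -0.055 to 0.083, Kctd12-202 -0.033 to 0.053, Nlgn2-201 -0.060 to 0.36, Glrb -0.097 to 0.046, Kcnj6 -0.16 to 0.029, Kcnj9 -0.003 to 0.097, Lhfpl4 -0.064 to 0.018, Nlgn3 -0.098 to 0.031, Rgs7 -0.042 to 0.042, Slitrk3 -0.14 to 0.013 and Sst -0.20 to 0.15. Each of these changed sign in some run. Without a change of sign, Kctd16 ran from -0.29 to -0.12, Gphn from 0.066 to 0.23, Insyn1 from 0.26 to 0.61 and Pvalb from -0.40 to -0.11. The Gabbr1 1a share differed by -0.806 to 1.28 percentage points. The Gabbr1 to Gabbr2 log2 ratio differed by 0.141 to 0.255 and the Kctd12 to Kctd16 log2 ratio by 0.0838 to 0.189. Genes called ranged from 0 to 1 (Gm28048 without vehicle replicate 3, Insc without AM6545 replicate 3) and transcripts called from 0 to 4.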
